A study of Homo sapiens with 16 samples.

Results

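Complexes II, III, IV and V of the mitochondrial respiratory chain and the mobile electron carrier cytochrome c are built largely from proteins encoded in the nucleus, and the expression of those nuclear genes was examined in neuron-like human cells with and without the toxin MPP. Genes were taken by symbol: SDHA to SDHD, every symbol beginning with UQCR, CYC1, CYCS, symbols beginning with COX4 to COX8, and symbols beginning with ATP5. This name pattern matched 50 of the 19898 genes in the deposited table, and 2 pseudogenes among them were left out, which gave 48 members. They comprised 4 genes of complex II, 10 of complex III, CYCS, 15 of complex IV and 18 of complex V, and 47 of them passed the filter on low values and were tested, the exception being COX6A2. Complex II (succinate dehydrogenase) passes electrons to ubiquinone, complex III passes them on to cytochrome c, complex IV (cytochrome c oxidase) hands them to oxygen, and complex V (ATP synthase) uses the resulting proton gradient to make ATP. Complexes III, IV and V also need core subunits encoded by mitochondrial DNA, while every subunit of complex II is nuclear. Several complex IV subunits exist in a common form and in an alternative form restricted to certain tissues or conditions, for example COX4I1 and COX4I2.

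The cells were SH-SY5Y, a neuroblastoma line, differentiated for 15 days into cultures labelled dopamine-like neurons, grown flat in dishes (2D) or within scaffolds of silk and collagen (3D). MPP (1-methyl-4-phenylpyridinium), a poison of complex I used to model Parkinson disease, was given at 1 mM for 48 h from day 13, and the study asked how the culture format changes such features. The 16 poly-A selected RNA-seq libraries formed 4 groups of 4: MPP-treated 3D, untreated 3D, MPP-treated 2D and untreated 2D. Cells from 2D dishes were detached with Accutase before freezing whereas scaffolds were frozen whole, so the culture format and the way of harvest cannot be told apart. All groups come from 1 cell line, and the labels leave unsaid whether replicates were separate cultures; each p-value therefore reflects library-to-library spread, which may be technical. In bulk RNA, fewer cells of a type and less RNA per cell cannot be told apart.

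Each value is a gene's read count after division by its library's size factor, called normalised reads below, and depth ran from 24589435 to 46359070 reads per library. Of the 13 dopamine neuron markers looked for, 7 were in the table, TH, DDC and SLC18A2 among them; SLC6A3, LMX1A, FOXA2, EN1, KCNJ6 and ALDH1A1 were not analysed here. The 7 had summed levels of 13279 to 16704 normalised reads (MPP-treated 3D), 23283 to 25969 (untreated 3D), 5398 to 5642 (MPP-treated 2D) and 5522 to 6090.0 (untreated 2D). The 10 markers of mesenchymal and Schwann-like neuroblastoma states had summed levels of 5537 to 6630.1 (MPP-treated 3D), 5705 to 7058 (untreated 3D), 9632 to 10760.5 (MPP-treated 2D) and 7959 to 9040.3 (untreated 2D), with PRRX1 at 0 in 3 groups and SOX10 at 0 in untreated 3D. The 7 noradrenergic markers had summed levels of 156430.0 to 199978 (MPP-treated 3D), 194399 to 225288 (untreated 3D), 235948 to 252294 (MPP-treated 2D) and 248905 to 276695 (untreated 2D). None of the 3 sums overlapped between 3D and 2D, the dopamine sum did not overlap between MPP-treated and untreated 3D, nor the mesenchymal sum between MPP-treated and untreated 2D. Their part in the results on respiratory genes was not tested. The markers did not all go the way of their sum. After MPP in 3D, 1 of the 7 dopamine markers was called as higher (SLC18A2, log2 0.93, limma adjusted p = 3.9e-08) and 3 as lower, led by DDC (log2 -2.33, limma adjusted p = 5.47e-14). In untreated 3D over untreated 2D, 4 dopamine markers were called as higher and 1 as lower, and 1 noradrenergic marker as higher and 4 as lower. Of 8 mesenchymal and Schwann-like markers tested, 3 were called as lower, and 4 had a log2 change above 0. Abundant genes weigh most in a sum: in untreated 2D, DBH averaged 148729 normalised reads and VIM 5253. Untreated 3D replicate 4 stood apart: the median member lay 0.23 above its 16-library mean on the log2 scale, against -0.08, 0.03 and 0.08 in the other untreated 3D libraries, and it was the least deeply sequenced library at 24589435 reads.

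After MPP, most nuclear subunit mRNAs moved little, and those that changed were mainly lower. With library totals set equal the split in 2D was 6 up and 7 down, where 70.3% of the calls over all genes were up. In 2D cultures, 3 of 47 members rose and 14 fell after MPP, where 17.7% of all 16984 genes tested rose and 16.9% fell (limma, Benjamini-Hochberg adjusted p under 0.05 over all genes, as for every call here). In 3D cultures, 2 rose and 11 fell, against a background of 17% and 17.6% of all genes. The members called in either direction made up 27.7% in 3D, where 34.6% of all genes were called, and 36.2% in 2D, where 34.5% were, shares near or below the background. Between culture formats, 8 members were higher and 4 lower in untreated 3D than in untreated 2D, against 23.2% and 23% of all genes (either direction: 25.5% of members, 46.1% of all genes). With MPP, 6 were higher and 1 lower in MPP-treated 3D than in MPP-treated 2D, against 19% and 19.9% (14.9% of members and 38.9% of all genes in either direction). The effect of MPP differed between 3D and 2D for 3 members, COX4I2, COX6B2 and ATP5MC1, 1 upward and 2 downward, or 6.38% of members; of all genes 7% differed upward and 8.32% downward, 15.3% in all. The 4 values of a group all lay on one side of the other group's 4 for 1 member higher and 8 lower after MPP in 3D (27.6% of all genes in either direction), and 4 and 16 in 2D (38.8%). Between formats this held for 3 higher and 2 lower in untreated 3D (39.7%) and for 7 and 3 in MPP-treated 3D (37.5%).

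The sizes of the changes were small beside those of genes in general. A log2 change below 0.25 in size was found for 31 of 47 members after MPP in 2D (66%, against 47.8% of all genes) and for 33 after MPP in 3D (70.2% against 47.4%). Between the formats it was 34 members without MPP (72.3% against 40.4%) and 39 with MPP (83% against 44.7%). Most members have many reads, with a mean of 100 or more normalised reads in 44 of 48, and low genes scatter more, so these shares describe the genes as measured. The median log2 change of members was -0.08 in 3D and -0.09 in 2D after MPP, and that of all genes 0.00332 in 3D and 0.02 in 2D. This lower median moved with the scaling of the libraries, and mitochondrially encoded transcripts took 1.04% to 1.52% of reads in MPP-treated 3D against 3.30% to 6.84% in untreated 3D, and 0.791% to 0.949% in MPP-treated 2D against 7.72% to 11.6% in untreated 2D libraries. With library totals set equal, the median of all genes shifted to 0.10 in 3D and 0.12 in 2D, and that of members to 0.01 in 3D and 0.02 in 2D, so that members still lay below all genes. Then 5 members rose and 8 fell in 3D, where 24.4% of all genes rose and 12.6% fell. In 2D 6 rose and 7 fell, where 25.7% of all genes rose and 10.9% fell. With the nuclear totals set equal, the calls were 5 up and 11 down in 3D (all genes 21.2% and 14.5%, median 0.06). In 2D they were 2 up and 15 down (all genes 15% and 20.4%, median -0.02). For untreated 3D over 2D that scaling gave 6 members up and 9 down, with a median of -0.05 for members and -0.08 for all genes, of which 18% were up and 29.1% down. For the difference of MPP effects it gave 5 up and 2 down, where all genes had a median of 0.08, 12.5% up and 6.2% down.

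Single libraries moved some of these counts. For untreated 3D over 2D, the number higher was 5 without untreated 2D replicate 2, and the number lower was 2 if untreated 2D replicate 3 was left out, 2 if untreated 3D replicate 1 was and 8 if untreated 3D replicate 4 was. For MPP-treated 3D over 2D, the number higher was 3 without MPP-treated 2D replicate 3, and the number lower was 2 without untreated 3D replicate 4 and 3 without MPP-treated 3D replicate 4. For the difference of MPP effects, the 1 upward call (ATP5MC1) was lost without any 1 of untreated 3D replicate 1, MPP-treated 3D replicates 2 and 4, MPP-treated 2D replicate 1 and untreated 2D replicate 3. Without untreated 3D replicate 4, 3 members rose and 11 fell after MPP in 3D, and 6 were higher in untreated 3D than in untreated 2D.

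**Figure D1:**
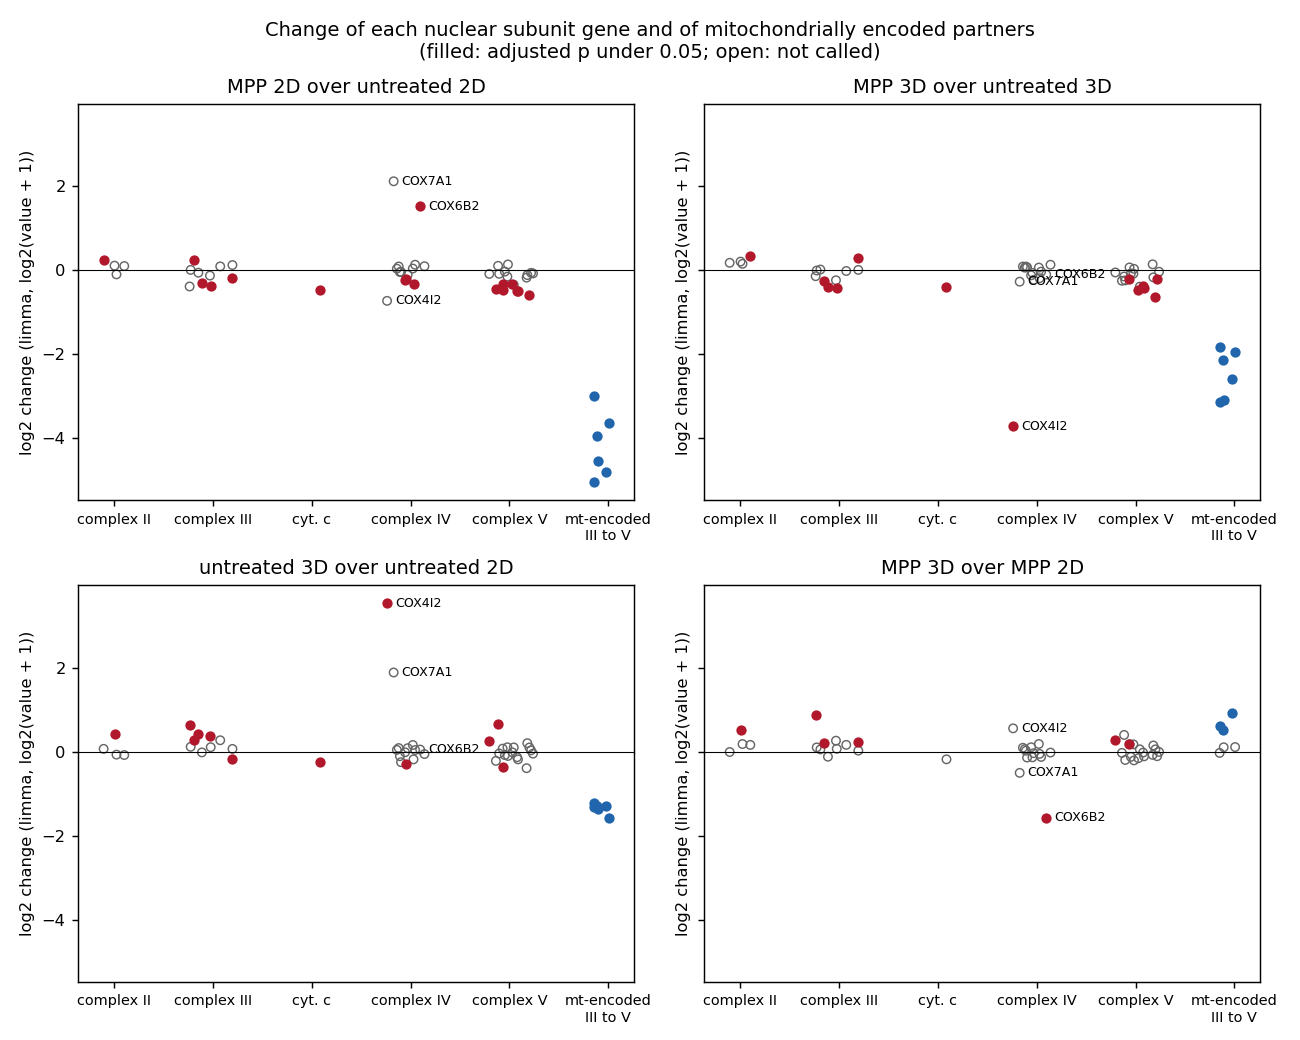
Log2 change (vertical axis, limma on log2 of the value + 1) of each nuclear subunit gene by complex, and of 6 mitochondrially encoded partners (blue), in 4 comparisons; filled points passed an adjusted p of 0.05 and open points did not. Most nuclear genes lie near 0, COX4I2 stands at -3.71 after MPP in 3D and at 3.53 in untreated 3D over untreated 2D, COX6B2 at 1.52 after MPP in 2D, and the mitochondrially encoded partners lie far below 0 after MPP.

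**Figure D2:**
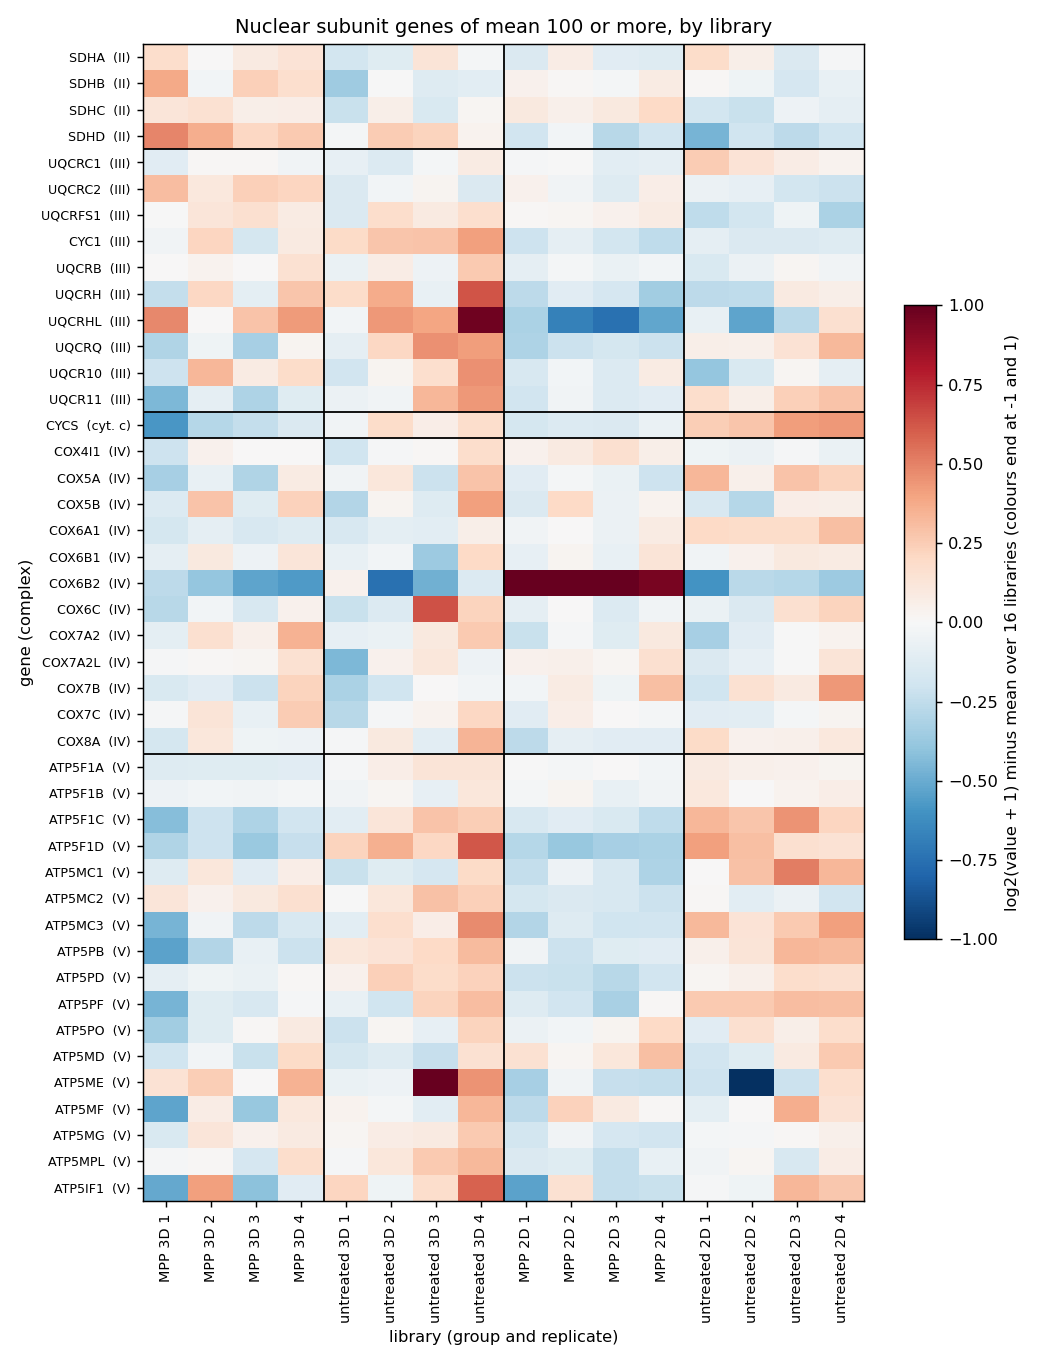
Each row is 1 of the 44 nuclear subunit genes with a mean of 100 or more and each column 1 library; colour gives log2(value + 1) minus the gene's mean over the 16 libraries, with colours ending at -1 and 1. COX6B2 is high in the 4 MPP-treated 2D libraries, many genes are high in untreated 3D replicate 4, and complex V genes such as ATP5F1C and ATP5F1D are lower in both MPP-treated groups than in both untreated groups.

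Promoter sequence is printed for a selection of the members the results turn on. For instance, ATP5PB and ATP5PD fell after MPP in both formats and had a window, and are not printed. Windows came from RefSeq's table for GRCh38.p14. It held a window for 37 of 48 members, in 43 windows of 250 bases before to 50 after the start. COX4I2 was not among the 37, so no motif was read for it. Nuclear respiratory genes are known targets of the factors NRF1, GABPA and YY1, and HIF acts on genes that respond to low oxygen. The letters GCGCA, any base, then GCGC (NRF1) occurred on either strand in 23.3% of member windows, in 8.73% of the 18819 windows of tested genes and in 5.78% of all 35116 windows. The shares in member windows, windows of tested genes and all windows were, for CCGGAAG (GABPA), 39.5%, 14.7% and 10.3%, for AAGATGG (YY1), 23.3%, 6.5% and 5.84%, and for ACGTG (HIF), 23.3%, 24.2% and 21.4%. The 250 bases before the start are shown for COX6B2, the member that rose most after MPP in 2D, for its common counterpart COX6B1, which was not called there, and for CYCS, UQCRQ, UQCR11 and ATP5F1C, which fell after MPP in both formats. They lie at chr19:55354720-55354969 (minus strand), chr19:35648073-35648322 (plus), chr7:25125261-25125510 (minus), chr5:132866392-132866641 (plus), chr19:1605463-1605712 (minus) and chr10:7787927-7788176 (plus), each directly before the start in RefSeq's table. They are printed 5′ to 3′ on the gene's strand. The GENCODE 29 spans of these 6 genes begin further upstream, so that 28 to 101 bases of each window lie inside the span. Capitals mark matches to any of the 4 motifs.
COX6B2: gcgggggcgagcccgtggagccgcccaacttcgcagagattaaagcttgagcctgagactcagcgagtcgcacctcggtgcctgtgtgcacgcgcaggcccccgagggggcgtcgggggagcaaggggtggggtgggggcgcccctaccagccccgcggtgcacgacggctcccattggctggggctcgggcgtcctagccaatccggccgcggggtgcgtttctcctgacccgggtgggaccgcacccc
COX6B1: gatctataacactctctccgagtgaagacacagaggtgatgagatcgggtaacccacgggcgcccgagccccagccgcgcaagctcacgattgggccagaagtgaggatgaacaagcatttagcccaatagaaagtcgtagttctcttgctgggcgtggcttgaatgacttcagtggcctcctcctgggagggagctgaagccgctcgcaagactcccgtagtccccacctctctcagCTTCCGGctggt
CYCS: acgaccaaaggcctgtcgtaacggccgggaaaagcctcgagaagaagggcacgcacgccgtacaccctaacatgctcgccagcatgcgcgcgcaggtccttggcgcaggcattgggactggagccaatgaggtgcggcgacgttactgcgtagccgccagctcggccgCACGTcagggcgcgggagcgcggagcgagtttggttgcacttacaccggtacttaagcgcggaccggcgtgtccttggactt
UQCRQ: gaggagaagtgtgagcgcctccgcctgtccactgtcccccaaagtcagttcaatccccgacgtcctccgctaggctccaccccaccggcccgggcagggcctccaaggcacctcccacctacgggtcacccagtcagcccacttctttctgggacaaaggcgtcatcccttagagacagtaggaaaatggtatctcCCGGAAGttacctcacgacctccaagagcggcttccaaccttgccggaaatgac
UQCR11: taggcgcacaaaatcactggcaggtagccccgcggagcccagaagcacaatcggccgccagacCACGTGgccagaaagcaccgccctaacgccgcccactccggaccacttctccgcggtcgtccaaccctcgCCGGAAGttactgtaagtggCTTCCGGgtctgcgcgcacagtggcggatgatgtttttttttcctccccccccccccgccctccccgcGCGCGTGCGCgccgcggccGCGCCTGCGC
ATP5F1C: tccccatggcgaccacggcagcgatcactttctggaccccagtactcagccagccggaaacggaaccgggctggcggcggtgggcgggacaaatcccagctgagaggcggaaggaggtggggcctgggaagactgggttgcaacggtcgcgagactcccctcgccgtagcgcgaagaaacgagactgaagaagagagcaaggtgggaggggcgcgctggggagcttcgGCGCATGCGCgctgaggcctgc
COX6B2 held no match and COX6B1 held 1 GABPA match. UQCR11 held 2 NRF1 matches, 2 GABPA matches and 2 HIF matches that overlap each other, UQCRQ held 1 GABPA match, CYCS 1 HIF match, and ATP5F1C 1 NRF1 site that reads the same on both strands. A match is a run of letters and says nothing of whether a factor binds.

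Complex II had 4 members, and each call in it was upward. With library totals set equal, 4 of 4 were called as higher after MPP in 3D, as were 4 with nuclear totals set equal and 2 with quantile normalisation, against 1 as deposited. Of all genes, 24.4% rose with library totals set equal, 21.2% with nuclear totals set equal and 18.9% with quantile normalisation. SDHA, the flavoprotein that oxidises succinate, was not called in any comparison of the values as deposited. SDHA had 2429.8, 2154, 2289 and 2368 normalised reads in the MPP-treated 3D libraries and 1893, 1975, 2352 and 2115 in the untreated 3D libraries. In 2D, SDHA had 1945, 2266, 1987 and 1970.1 with MPP and 2446, 2242, 1948 and 2129 untreated. The 4 groups overlapped, and after MPP the SDHA change was 0.15 in 3D and -0.10 in 2D on the log2 scale. SDHB had 1422, 1074, 1291 and 1227 normalised reads in the MPP-treated 3D libraries and 853, 1088, 999 and 1014 in the untreated 3D libraries. In 2D, SDHB had 1124, 1105, 1080.1 and 1159.7 with MPP and 1104, 1059, 972 and 1042 untreated. SDHB, the iron-sulphur subunit, rose after MPP in 3D (log2 change 0.34, SE 0.0920, limma adjusted p = 0.00619), where the lowest treated library lay within the untreated range, and was not called in 2D (log2 0.10, limma adjusted p = 0.434).

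SDHC had 3773, 3855, 3613 and 3639.8 normalised reads in the MPP-treated 3D libraries and 2969, 3614, 3121 and 3514 in the untreated 3D libraries. In 2D, SDHC had 3703, 3591, 3711 and 3983 with MPP and 3048, 2973, 3342 and 3249.6 untreated. SDHC, a membrane anchor, rose after MPP in 2D, where the 4 treated libraries were all above the 4 untreated ones (log2 change 0.25, SE 0.0698, limma adjusted p = 0.00806), and was not called in 3D (log2 0.18, limma adjusted p = 0.0559). SDHD had 1338, 1226, 1098 and 1141 normalised reads in the MPP-treated 3D libraries and 942, 1138, 1114 and 977 in the untreated 3D libraries. In 2D, SDHD had 833, 933, 785 and 835 with MPP and 690.2, 829, 795 and 831 untreated. SDHD, the other anchor, was higher in untreated 3D than in untreated 2D (log2 change 0.41, SE 0.0950, limma adjusted p = 0.00133) and higher in MPP-treated 3D than in MPP-treated 2D (log2 change 0.50, SE 0.0950, limma adjusted p = 0.000219), with no overlap in either pair. MPP itself left SDHD uncalled in 3D (log2 0.20, limma adjusted p = 0.102) and in 2D (log2 0.11, limma adjusted p = 0.406).

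Near-identical sequence elsewhere in the genome (GENCODE 29 transcripts, 95% identity or more over at least 100 bases) was found for 17 of the 48 members, so their reads as counted could be split with other genes. The longest match was 2004 bases for SDHA, which has 5 such genes elsewhere, 480 for SDHD with 4 and 331 for SDHC with 3. With 1 such gene each, it was 813 bases for UQCRFS1, 481 for ATP5PD, 442 for ATP5PB, 330 for COX6A1 and 114 for ATP5MC3. The others were UQCRH and UQCRHL, CYCS and ATP5F1E, described below, and COX7C, ATP5MD, ATP5MF, ATP5MG and ATP5MPL, which were not called in any comparison. Exons of other annotated genes also overlap called members besides COX6B2, COX8A and ATP5ME, described below. Exonic bases shared on the same strand were 13% for COX6A1, 11.2% for SDHD, 10.9% for UQCR11 and 6.99% for ATP5MC2. On the opposite strand they were 23.1% for ATP5PF, 20.8% for UQCRQ, 19.1% for ATP5PD and 10.3% for ATP5PB, among others.

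In complex III, subunits of one kind did not all move alike. UQCRC2, a core protein, rose after MPP in 3D, and UQCRC1, the other core protein, fell after MPP in 2D. The difference between the MPP effects in 3D and 2D was not called for UQCRC2 (limma adjusted p = 0.284) or UQCRC1 (limma adjusted p = 0.194). UQCRC2 had 4031, 3493, 3835 and 3777 normalised reads in the MPP-treated 3D libraries and 2944, 3197, 3311 and 2943 in the untreated 3D libraries. In 2D, UQCRC2 had 3349, 3174, 2979.8 and 3406 with MPP and 3117, 3072, 2864 and 2803 untreated. The 4 MPP-treated 3D libraries had the highest UQCRC2 values of all 16, above untreated 3D (log2 change 0.29, SE 0.0688, limma adjusted p = 0.00237) and above MPP-treated 2D (log2 change 0.23, SE 0.0688, limma adjusted p = 0.0112). The difference between the treated formats missed limma's threshold without MPP-treated 2D replicate 3 (adjusted p = 0.0512). UQCRC1 averaged 4030.3 ± 146 in MPP-treated 2D and 4571 ± 308 in untreated 2D libraries (SD, n = 4 each; log2 change -0.18, SE 0.0659, limma adjusted p = 0.0382), and was also lower in untreated 3D (4078 ± 271) than in untreated 2D (log2 -0.16, limma adjusted p = 0.0454). The fall in 2D missed limma's threshold with library totals set equal (adjusted p = 0.407) and without untreated 2D replicate 1 (0.142) or 2 (0.0785) or MPP-treated 2D replicate 1 (0.0536), 3 (0.102) or 4 (0.0823). The difference between untreated formats missed limma's threshold with library totals set equal (adjusted p = 0.0634) and with only the compared groups in the fit (0.094) and without untreated 2D replicate 1 (0.162), 2 (0.0885) or 3 (0.0512) or untreated 3D replicate 1 (0.0977), 2 (0.138) or 3 (0.0512) or MPP-treated 2D replicate 1 (0.0549), 2 (0.0525), 3 (0.0535) or 4 (0.0509) or MPP-treated 3D replicate 2 (0.0504) or 4 (0.0544).

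UQCRFS1 encodes the Rieske iron-sulphur protein and CYC1 cytochrome c1, the catalytic subunits beside the mitochondrially encoded cytochrome b. UQCRFS1 had 1584, 1726, 1769.6 and 1679 normalised reads in the MPP-treated 3D libraries and 1438, 1792, 1689.7 and 1787 in the untreated 3D libraries. In 2D, UQCRFS1 had 1599.8, 1607, 1636 and 1675 with MPP and 1330.4, 1395, 1536 and 1273 untreated. UQCRFS1 was lowest on average in untreated 2D: it rose after MPP in 2D with no overlap (log2 change 0.24, SE 0.0808, limma adjusted p = 0.0254) and was higher in untreated 3D than in untreated 2D (log2 change 0.27, SE 0.0808, limma adjusted p = 0.00798). The rise in 2D missed limma's threshold with nuclear totals set equal (adjusted p = 0.0646) and without untreated 2D replicate 1 (0.0671) or 4 (0.0876) or MPP-treated 2D replicate 3 (0.0532) or 4 (0.0578). The difference between untreated formats missed limma's threshold with nuclear totals set equal (adjusted p = 0.0608). CYC1 had 2361, 2796, 2131 and 2566 normalised reads in the MPP-treated 3D libraries and 2761, 2920.1, 2935 and 3205 in the untreated 3D libraries. In 2D, CYC1 had 2086, 2266, 2121 and 2019 with MPP and 2272, 2184, 2183 and 2203 untreated. CYC1 was highest on average in untreated 3D, above untreated 2D without overlap (log2 change 0.42, SE 0.0772, limma adjusted p = 0.000132), fell after MPP in 3D (log2 change -0.27, SE 0.0772, limma adjusted p = 0.00963), and was higher in MPP-treated 3D than in MPP-treated 2D (log2 change 0.21, SE 0.0772, limma adjusted p = 0.0363). The fall in 3D missed limma's threshold with library totals set equal (adjusted p = 0.0925) and with only the compared groups in the fit (0.0513). The difference between treated formats missed limma's threshold with only the compared groups in the fit (adjusted p = 0.0586) and without MPP-treated 2D replicate 1 (0.0787), 3 (0.0684) or 4 (0.0955) or MPP-treated 3D replicate 2 (0.153) or 4 (0.0973).

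Among the small subunits, UQCRQ and UQCR11, whose promoters are printed above, fell after MPP in both formats. UQCRQ had 1553, 1849, 1518 and 1942 normalised reads in the MPP-treated 3D libraries and 1796, 2202, 2624 and 2558 in the untreated 3D libraries. In 2D, UQCRQ had 1542, 1642, 1690.3 and 1647 with MPP and 1985, 1977, 2116 and 2393 untreated. UQCRQ overlapped between the groups in 3D and not in 2D, and it fell in 3D (log2 change -0.41, SE 0.106, limma adjusted p = 0.00433) and in 2D (log2 change -0.37, SE 0.106, limma adjusted p = 0.00902). The UQCRQ fall in 2D missed limma's threshold with library totals set equal (adjusted p = 0.0519). UQCR11 had 1583, 2036, 1744 and 1993 normalised reads in the MPP-treated 3D libraries and 2082, 2116, 2717 and 2928 in the untreated 3D libraries. In 2D, UQCR11 had 1891, 2114, 1964 and 2003 with MPP and 2444, 2252, 2550.0 and 2637 untreated. UQCR11 did not overlap in either format, and it fell in 3D (log2 change -0.41, SE 0.103, limma adjusted p = 0.00334) and in 2D (log2 change -0.31, SE 0.103, limma adjusted p = 0.0232). The UQCR11 fall in 2D missed limma's threshold with library totals set equal (adjusted p = 0.13) and without untreated 2D replicate 3 (0.0566) or 4 (0.0692) or MPP-treated 2D replicate 1 (0.0654) or 3 (0.0517). UQCRB and UQCR10, likewise small subunits, were not called in any comparison.

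UQCRH, the hinge protein beside cytochrome c1, averaged 6494 ± 1344 in untreated 3D against 4975 ± 662 in untreated 2D (SD, n = 4 each; log2 change 0.37, SE 0.127, limma adjusted p = 0.0207). This difference missed limma's threshold with nuclear totals set equal (adjusted p = 0.0784) and without untreated 2D replicate 1 (0.0735) or 2 (0.0709) or untreated 3D replicate 2 (0.0556) or 4 (0.0966). UQCRHL had 158, 113, 138 and 152 normalised reads in the MPP-treated 3D libraries and 111, 153, 149 and 222 in the untreated 3D libraries. In 2D, UQCRHL had 90.4, 70.1, 66.8 and 78.3 with MPP and 107, 78.1, 93.5 and 126 untreated. UQCRHL is a near-identical copy of UQCRH, with a 516-base match at 95% identity or more, so reads could be split between the pair. As counted, UQCRHL was higher in MPP-treated 3D than in MPP-treated 2D without overlap (log2 change 0.87, SE 0.217, limma adjusted p = 0.00297) and higher in untreated 3D than in untreated 2D (log2 change 0.62, SE 0.217, limma adjusted p = 0.0226). The untreated difference missed limma's threshold without untreated 2D replicate 2 (adjusted p = 0.0819) or 3 (0.0521) or untreated 3D replicate 4 (0.102).

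CYCS encodes cytochrome c, which carries electrons from complex III to complex IV and, once released from mitochondria, takes part in apoptosis. CYCS had 3722, 4582, 4719.8 and 5040.5 normalised reads in the MPP-treated 3D libraries and 5430.5, 6346, 5828 and 6305 in the untreated 3D libraries. In 2D, CYCS had 4947, 5083, 5039.9 and 5338 with MPP and 6625, 6771, 7457 and 7523 untreated. CYCS fell after MPP in 3D (log2 change -0.41, SE 0.0807, limma adjusted p = 0.000397) and in 2D (log2 change -0.47, SE 0.0807, limma adjusted p = 9.42e-05), and in both formats the 4 treated libraries lay below the 4 untreated ones. It was also lower in untreated 3D than in untreated 2D (log2 change -0.25, SE 0.0807, limma adjusted p = 0.0155). That difference between formats missed limma's threshold without untreated 2D replicate 4 (adjusted p = 0.0524) or untreated 3D replicate 1 (0.0582). CYCS has 4 such pseudogene copies.

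The called members with the largest changes after MPP, COX4I2 in 3D and COX6B2 in 2D, belong to complex IV, and both are alternative forms of a subunit. COX4I2 is the alternative form of subunit 4, known to respond to low oxygen and to be abundant in lung; its gene lies at chr20:31637888-31645006, plus strand (GENCODE 29, GRCh38), overlaps no other annotated exon and has no near-identical copy. COX4I2 had 5.42, 23.2, 35.2 and 18.4 normalised reads in the MPP-treated 3D libraries and 224, 262, 202 and 265 in the untreated 3D libraries. In 2D, COX4I2 had 11.3, 10.8, 15.6 and 8.80 with MPP and 14.6, 22.6, 18.8 and 23.3 untreated. COX4I2 was thus high in the 4 untreated 3D libraries alone, and none of the other 12 reached a value of 50. It was higher in untreated 3D than in untreated 2D (log2 change 3.53, SE 0.404, limma adjusted p = 2.61e-07) and fell after MPP in 3D (log2 change -3.71, SE 0.404, limma adjusted p = 2.67e-07). In 2D the change with MPP was not called (log2 -0.73, limma adjusted p = 0.17), and the difference between the MPP effects in 3D and 2D passed the test (log2 change -2.98, SE 0.571, limma adjusted p = 0.000732). COX4I2 began in untreated 2D at only 14.6 to 23.3 normalised reads, which leaves little room for a fall as large as in 3D. Adjusted p ranged from 6.4e-26 to 1.17e-05 over 28 alternatives for MPP in 3D, 9.44e-27 to 3.12e-06 over 28 alternatives for untreated 3D over 2D, and 9.2e-07 to 0.00244 over 27 alternatives for the difference.

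COX4I1 had 4863, 5782, 5643 and 5629 normalised reads in the MPP-treated 3D libraries and 4906, 5585, 5654 and 6337 in the untreated 3D libraries. In 2D, COX4I1 had 5779, 5984, 6270.3 and 5858 with MPP and 5464, 5405, 5572 and 5380.4 untreated. COX4I1, the common form of subunit 4, overlapped between groups in 3D and was not called in any comparison (after MPP, log2 -0.03, limma adjusted p = 0.752 in 3D and log2 0.13, limma adjusted p = 0.171 in 2D), although in 2D the 4 treated libraries lay above the 4 untreated ones. The log2 ratio of COX4I2 to COX4I1, whose gene lengths cancel between groups, was -8.23 ± 0.964 in MPP-treated 3D, -4.56 ± 0.176 in untreated 3D, -8.91 ± 0.275 in MPP-treated 2D and -8.05 ± 0.304 in untreated 2D libraries (SD, n = 4 each).

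**Figure D3:**
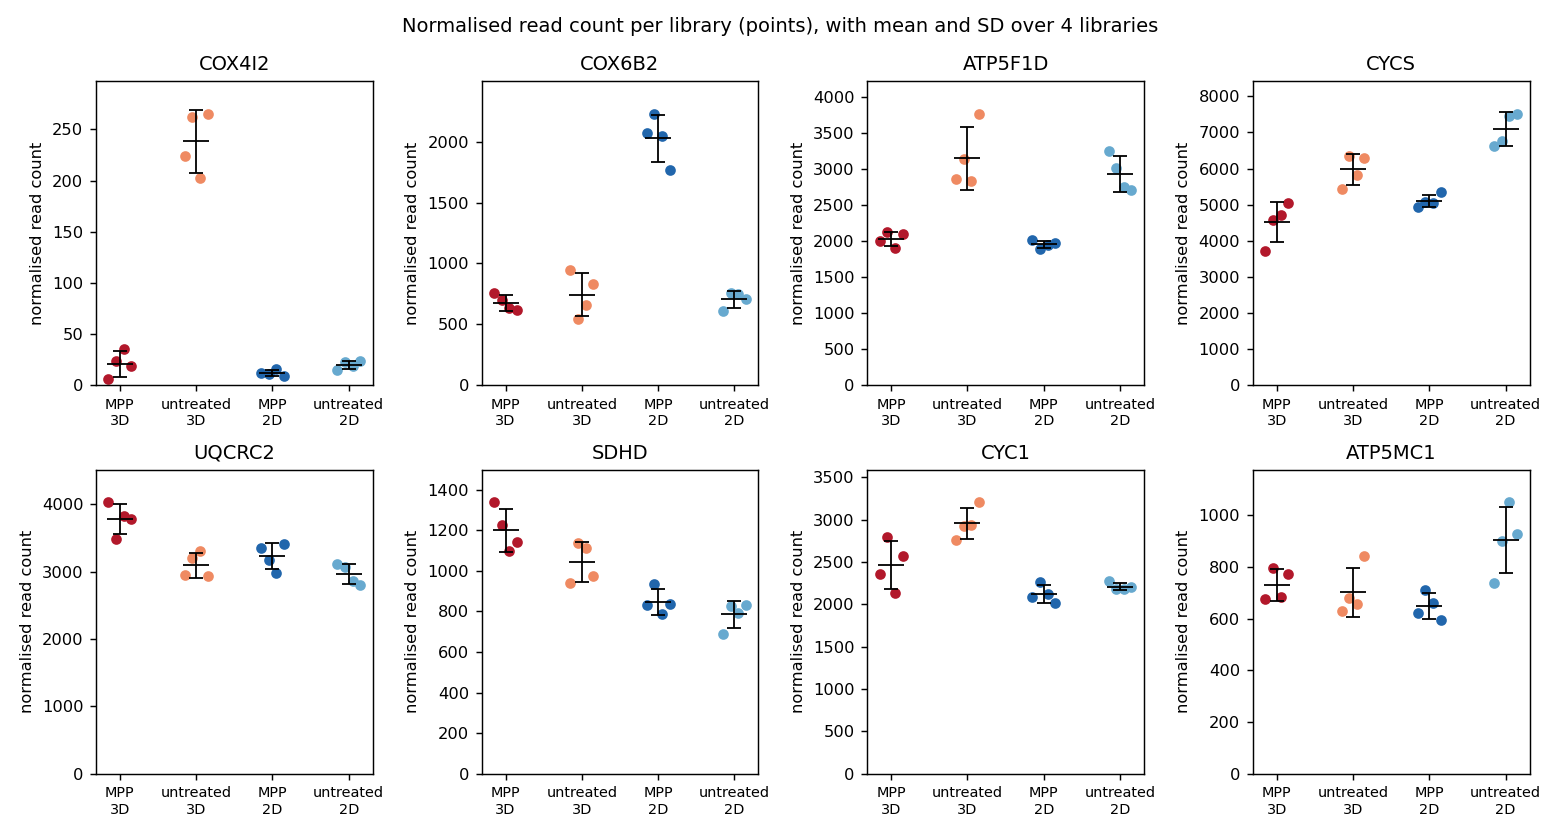
Normalised read count (vertical axis, from 0) of 8 nuclear subunit genes in each library (points), with mean and SD over 4 libraries (black bars), for MPP-treated 3D, untreated 3D, MPP-treated 2D and untreated 2D. COX4I2 averages 20.6 in MPP-treated 3D and 238 in untreated 3D, COX6B2 averages 2028 in MPP-treated 2D, and ATP5F1D and CYCS are lower with MPP in both formats.

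COX6B2 is the alternative form of subunit 6B, best known from testis, and its upstream sequence is printed above. COX6B2 had 760.3, 699.8, 634 and 617 normalised reads in the MPP-treated 3D libraries and 942, 544, 654 and 831 in the untreated 3D libraries. In 2D, COX6B2 had 2069, 2231, 2046 and 1764 with MPP and 605, 759, 749 and 708 untreated. The 4 MPP-treated 2D libraries were above all other 12, by 2.87-fold over untreated 2D (log2 change 1.52, SE 0.133, limma adjusted p = 1.36e-08). MPP left COX6B2 uncalled in 3D (log2 -0.10, limma adjusted p = 0.581), and it was lower in MPP-treated 3D than in MPP-treated 2D (log2 change -1.58, SE 0.133, limma adjusted p = 3.98e-09), and the MPP effects in 3D and 2D differed (log2 change -1.63, SE 0.189, limma adjusted p = 1.6e-06). Adjusted p ranged from 1.27e-27 to 2.38e-07 over 28 alternatives for MPP in 2D. COX6B2 (chr19:55349306-55354814, minus strand, GENCODE 29) shares 30.9% of its exonic bases with AC020922.1 on the same strand, so reads of the pair cannot be told apart there. COX6B1, the common form, was 2728 ± 192 in MPP-treated 2D and 2809.7 ± 113 in untreated 2D libraries (SD, n = 4 each; log2 -0.04, limma adjusted p = 0.744).

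COX6A1 had 5239, 5557, 5312 and 5412 normalised reads in the MPP-treated 3D libraries and 5316, 5537, 5518 and 6173 in the untreated 3D libraries. In 2D, COX6A1 had 5782, 5942, 5684 and 6276 with MPP and 6789.7, 6740.5, 6720.1 and 7309 untreated. COX6A1, the common form of subunit 6A, had its 4 highest values in untreated 2D: it fell after MPP in 2D (log2 change -0.22, SE 0.0606, limma adjusted p = 0.00759) and was lower in untreated 3D than in untreated 2D (log2 change -0.29, SE 0.0606, limma adjusted p = 0.00045), without overlap in either pair. The fall with MPP missed limma's threshold with library totals set equal (adjusted p = 0.146). COX6A2 had 5.42, 1.79, 14.8 and 3.68 normalised reads in the MPP-treated 3D libraries and 2.11, 10.6, 0 and 2.98 in the untreated 3D libraries. In 2D, COX6A2 had 1.62, 10.8, 5.57 and 7.04 with MPP and 8.62, 2.06, 4.71 and 0 untreated. COX6A2, the heart and muscle form, stayed under 15 normalised reads in every library and was not tested. COX7A1 had 21.7, 2.68, 3.70 and 4.60 normalised reads in the MPP-treated 3D libraries and 14.8, 8.22, 2.81 and 7.46 in the untreated 3D libraries. In 2D, COX7A1 had 1.62, 11.7, 12.2 and 19.4 with MPP and 3.45, 0, 4.71 and 0 untreated. COX7A1, the muscle form of subunit 7A, was at most 21.7 and was not called after MPP in 2D (log2 2.11, limma adjusted p = 0.0533) or in any other comparison.

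COX7A2 had 3560.3, 4273, 3959 and 4859 normalised reads in the MPP-treated 3D libraries and 3607, 3641, 4089.6 and 4583 in the untreated 3D libraries. In 2D, COX7A2 had 3275, 3786, 3501 and 4085 with MPP and 3029.5, 3526, 3808 and 3914 untreated. COX7A2, the common form of subunit 7A, was not called in any comparison. COX7A2L had 4182, 4246, 4275 and 4668 normalised reads in the MPP-treated 3D libraries and 3081, 4342, 4547 and 4063 in the untreated 3D libraries. In 2D, COX7A2L had 4342, 4364, 4255 and 4693 with MPP and 3807, 3967, 4194 and 4594 untreated. COX7A2L, a related protein that joins complexes III and IV into supercomplexes, was not called in any comparison either, and its lowest value was in untreated 3D replicate 1. COX5A, a subunit on the matrix side of the complex, averaged 2119.7 ± 114 in MPP-treated 2D against 2653 ± 222 in untreated 2D (SD, n = 4 each; log2 change -0.32, SE 0.102, limma adjusted p = 0.0181). The COX5A fall missed limma's threshold with library totals set equal (adjusted p = 0.111) and without untreated 2D replicate 1 (0.0608) or MPP-treated 2D replicate 4 (0.0517). COX8A, a small membrane subunit, averaged 3812 ± 202 in MPP-treated 2D against 4508 ± 215 in untreated 2D (SD, n = 4 each; log2 change -0.24, SE 0.0830, limma adjusted p = 0.0273), and it shares 34.5% of its exonic bases with AP000721.1 on the same strand. The COX8A fall missed limma's threshold with library totals set equal (adjusted p = 0.213) and without untreated 2D replicate 1 (0.0856) or 4 (0.0542) or MPP-treated 2D replicate 1 (0.0964). COX5B, COX6B1, COX6C, COX7B and COX7C were not called in any comparison.

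Of the 18 complex V members, 6 fell after MPP in 3D (33.3%) and 7 in 2D (38.9%), against 17.6% and 16.9% of all genes. Their median log2 change was -0.19 in 3D and -0.17 in 2D. With library totals set equal, 4 fell in 3D, where 12.6% of all genes fell (median -0.09, of all genes 0.10). In 2D, 6 fell under that scaling, where 10.9% of all genes fell (median -0.06, of all genes 0.12). F1 is the catalytic head, in which alpha and beta form the ring that makes ATP around the gamma, delta and epsilon shaft. ATP5F1D had 1992, 2122, 1894 and 2088 normalised reads in the MPP-treated 3D libraries and 2855, 3138, 2825 and 3763 in the untreated 3D libraries. In 2D, ATP5F1D had 2008, 1880.2, 1948 and 1963 with MPP and 3248, 3015, 2743 and 2708 untreated. ATP5F1D (delta) was lower in all 8 treated than in all 8 untreated libraries, in 3D (log2 change -0.63, SE 0.0845, limma adjusted p = 5.08e-06) and in 2D (log2 change -0.58, SE 0.0845, limma adjusted p = 1.47e-05). ATP5F1C had 1659, 1929, 1794 and 1946 normalised reads in the MPP-treated 3D libraries and 2065, 2421, 2707 and 2636 in the untreated 3D libraries. In 2D, ATP5F1C had 1989.8, 2055, 1999.9 and 1871 with MPP and 2795, 2705, 3046 and 2588 untreated. ATP5F1C (gamma), whose promoter is printed above, was likewise lower in all 8 treated libraries, in 3D (log2 change -0.42, SE 0.0838, limma adjusted p = 0.000476) and in 2D (log2 change -0.49, SE 0.0838, limma adjusted p = 9.79e-05). ATP5F1A (alpha) averaged 10898 ± 62.7 in MPP-treated 3D and 12550.3 ± 569 in untreated 3D (SD, n = 4 each; log2 change -0.20, SE 0.0524, limma adjusted p = 0.00446). The ATP5F1A fall missed limma's threshold with library totals set equal (adjusted p = 0.127). ATP5F1B (beta) was not called in any comparison, with 13855 ± 134 in MPP-treated 3D, 14234 ± 852 in untreated 3D, 13943 ± 411 in MPP-treated 2D and 14715 ± 464 in untreated 2D libraries (SD, n = 4 each). ATP5F1E (epsilon) had only 20.0 to 25.8 normalised reads per group mean and has a near-identical pseudogene copy, so its level as counted is uncertain.

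The c subunits of the rotor ring are made from 3 genes, ATP5MC1, ATP5MC2 and ATP5MC3, that encode the same mature protein. ATP5MC1 had 675, 797, 682 and 773 normalised reads in the MPP-treated 3D libraries and 631, 679, 657 and 841 in the untreated 3D libraries. In 2D, ATP5MC1 had 623, 711, 661 and 596 with MPP and 740.1, 902, 1051 and 927 untreated. ATP5MC1 was highest on average in untreated 2D: it fell after MPP in 2D (log2 change -0.47, SE 0.114, limma adjusted p = 0.00258), was lower in untreated 3D than in untreated 2D (log2 change -0.36, SE 0.114, limma adjusted p = 0.0119), and was not called after MPP in 3D (log2 0.07, limma adjusted p = 0.694). The difference between the MPP effects in 3D and 2D was called (log2 change 0.54, SE 0.161, limma adjusted p = 0.0252). The difference of effects missed limma's threshold without untreated 2D replicate 3 (adjusted p = 0.0636) or untreated 3D replicate 1 (0.0523) or MPP-treated 2D replicate 1 (0.0504) or MPP-treated 3D replicate 2 (0.0507) or 4 (0.0529). The difference between untreated formats missed limma's threshold without untreated 2D replicate 3 (adjusted p = 0.0577). ATP5MC2 had 5061, 4798, 4980.0 and 5224 normalised reads in the MPP-treated 3D libraries and 4654, 5034, 5713 and 5489 in the untreated 3D libraries. In 2D, ATP5MC2 had 4123, 4215, 4170.2 and 4017 with MPP and 4692, 4343, 4469 and 4084 untreated. ATP5MC2 was higher in 3D than in 2D, both untreated (log2 change 0.25, SE 0.0672, limma adjusted p = 0.00479) and with MPP, where the groups did not overlap (log2 change 0.28, SE 0.0672, limma adjusted p = 0.00217), and was not called after MPP.

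ATP5MC3 had 1777, 2390.3, 2047 and 2196 normalised reads in the MPP-treated 3D libraries and 2274, 2755, 2557 and 3389 in the untreated 3D libraries. In 2D, ATP5MC3 had 1995, 2240.4, 2131 and 2142 with MPP and 3061, 2698, 2934 and 3251 untreated. ATP5MC3 fell after MPP in 3D, where the groups overlapped (log2 change -0.38, SE 0.103, limma adjusted p = 0.00659), and in 2D, where they did not (log2 change -0.49, SE 0.103, limma adjusted p = 0.000833). The 3 genes of the ring thus gave 3 patterns: ATP5MC3 was lower with MPP in both formats, ATP5MC1 in 2D, and ATP5MC2 in neither.

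The peripheral stalk holds the head still against the turning rotor. Of its 4 genes, 3 fell after MPP in 2D, where 16.9% of all genes tested fell. ATP5PB had 1072, 1268, 1470.5 and 1338 normalised reads in the MPP-treated 3D libraries and 1682, 1702, 1778 and 1936 in the untreated 3D libraries. In 2D, ATP5PB had 1513, 1340.3, 1424 and 1437 with MPP and 1609.5, 1699, 1958 and 1937 untreated. ATP5PB fell in 3D (log2 change -0.47, SE 0.0923, limma adjusted p = 0.000394) and in 2D (log2 change -0.33, SE 0.0923, limma adjusted p = 0.00806), without overlap in either format. The fall in 2D missed limma's threshold with library totals set equal (adjusted p = 0.0672). ATP5PD had 3579, 3710.3, 3639 and 3845 normalised reads in the MPP-treated 3D libraries and 3919.8, 4486, 4325 and 4472 in the untreated 3D libraries. In 2D, ATP5PD had 3278, 3264, 3150.2 and 3342 with MPP and 3860.1, 3940.2, 4309 and 4268 untreated. ATP5PD likewise did not overlap between treated and untreated libraries of a format; it fell in 3D (log2 change -0.22, SE 0.0628, limma adjusted p = 0.0095) and in 2D (log2 change -0.33, SE 0.0628, limma adjusted p = 0.000322), and it was higher in MPP-treated 3D than in MPP-treated 2D (log2 0.18, limma adjusted p = 0.0265). The fall in 3D missed limma's threshold with library totals set equal (adjusted p = 0.141) and with only the compared groups in the fit (0.0522). The difference between treated formats missed limma's threshold without MPP-treated 2D replicate 3 (adjusted p = 0.0759) or MPP-treated 3D replicate 2 (0.0506) or 4 (0.0786). ATP5PF averaged 1695 ± 167 in MPP-treated 2D and 2296 ± 40.5 in untreated 2D (SD, n = 4 each; log2 change -0.44, SE 0.107, limma adjusted p = 0.00264), and was not called in 3D (log2 -0.25, limma adjusted p = 0.0715). ATP5PO, which links the stalk to the head, was not called in any comparison.

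Of the small subunits of the membrane part, ATP5ME was called as higher in untreated 3D (639.6 ± 242) than in untreated 2D (404 ± 124; SD, n = 4 each; log2 change 0.65, SE 0.212, limma adjusted p = 0.0155), with overlap. This call missed limma's threshold without untreated 2D replicate 2 (adjusted p = 0.0862) or untreated 3D replicate 3 (0.078). ATP5ME shares 61.6% of its exonic bases with MYL5 on the opposite strand, and whether strand was used in counting was not stated in the sources used here. ATP5MD, ATP5MF, ATP5MG and ATP5MPL were not called in any comparison. ATP5IF1 had 716, 1358, 770.4 and 946 normalised reads in the MPP-treated 3D libraries and 1191, 991, 1154 and 1542 in the untreated 3D libraries. In 2D, ATP5IF1 had 705, 1136, 869 and 877 with MPP and 1013, 992, 1286 and 1235 untreated. ATP5IF1, the inhibitor that stops complex V from running backwards and using up ATP, overlapped between the groups and was not called after MPP in 3D (log2 -0.39, limma adjusted p = 0.0811) or in 2D (log2 -0.35, limma adjusted p = 0.123).

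The MPP comparisons in 2D and 3D contrast different libraries, and their calls are set side by side here. Both use the same estimate of each gene's spread, from the fit of all 16 libraries, so the calls are not independent. ATP5F1C, ATP5F1D, ATP5MC3, ATP5PB, ATP5PD, CYCS, UQCR11 and UQCRQ fell in both, 8 genes that made up 57.1% of the 14 that fell in 2D and 72.7% of the 11 that fell in 3D. Over all genes tested, 1327 fell in both, 46.3% of the 2868 that fell in 2D and 44.3% of the 2997 that fell in 3D. The difference from these shares was not tested. With library totals set equal, UQCRQ (limma adjusted p = 0.0519), UQCR11 (0.13) and ATP5PB (0.0672) missed the threshold in 2D. ATP5PD missed it in 3D under that scaling (0.141), so the shared list was shorter there. The overlap over all genes was counted on the values as deposited only. ATP5MC1, ATP5PF, COX5A, COX6A1, COX8A and UQCRC1 were called as lower in 2D only, and ATP5F1A, COX4I2 and CYC1 in 3D only; of these 9 genes the difference between the formats itself passed for COX4I2 and ATP5MC1. Leaving aside COX4I2 and COX7A1, the 28 members not called after MPP in 2D had log2 changes of -0.39 to 0.14, and the 33 not called in 3D had -0.39 to 0.20.

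The mitochondrially encoded partners of these subunits changed after MPP by more than nearly all of the nuclear genes; COX4I2 in 3D, at a log2 change of -3.71, is the exception. All 6 (CYTB of complex III, COX1, COX2 and COX3 of complex IV, ATP6 and ATP8 of complex V) fell after MPP in both formats, with a median log2 change of -2.36 in 3D and -4.25 in 2D. Among the 6, COX3 changed the most in each format (log2 -3.13, limma adjusted p = 2.53e-13 in 3D and log2 -5.05, limma adjusted p = 7.33e-17 in 2D). All 6 were also lower in untreated 3D than in untreated 2D, with a median of -1.30, while with MPP COX1, COX2 and COX3 were higher in 3D than in 2D (COX2 log2 0.92, limma adjusted p = 0.000217). The MPP effect differed between the formats for all 6, with a median difference of 1.75.

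Per library, the median deviation of complex IV subunits from their 16-library mean (log2) was -0.03 ± 0.120 for the nuclear and -1.40 ± 0.261 for the mitochondrially encoded genes in MPP-treated 3D, and -0.01 ± 0.158 and 1.20 ± 0.487 in untreated 3D (SD, n = 4 each). It was -0.01 ± 0.0755 for the nuclear and -2.30 ± 0.168 for the mitochondrially encoded genes in MPP-treated 2D, and -0.00144 ± 0.0907 and 2.50 ± 0.230 in untreated 2D. For complex V the nuclear genes stood at -0.08 ± 0.0939 in MPP-treated 3D, 0.12 ± 0.121 in untreated 3D, -0.15 ± 0.0636 in MPP-treated 2D and 0.10 ± 0.0816 in untreated 2D, where the 2D groups did not overlap. For complex III they stood at 0.03 ± 0.0844 in MPP-treated 3D, 0.15 ± 0.201 in untreated 3D, -0.11 ± 0.0617 in MPP-treated 2D and -0.04 ± 0.0634 in untreated 2D. Complex II, which has no mitochondrially encoded subunit, stood at 0.16 ± 0.0831 in MPP-treated 3D, above -0.04 ± 0.107 in untreated 3D, -0.03 ± 0.0437 in MPP-treated 2D and -0.11 ± 0.0347 in untreated 2D.

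**Figure D4:**
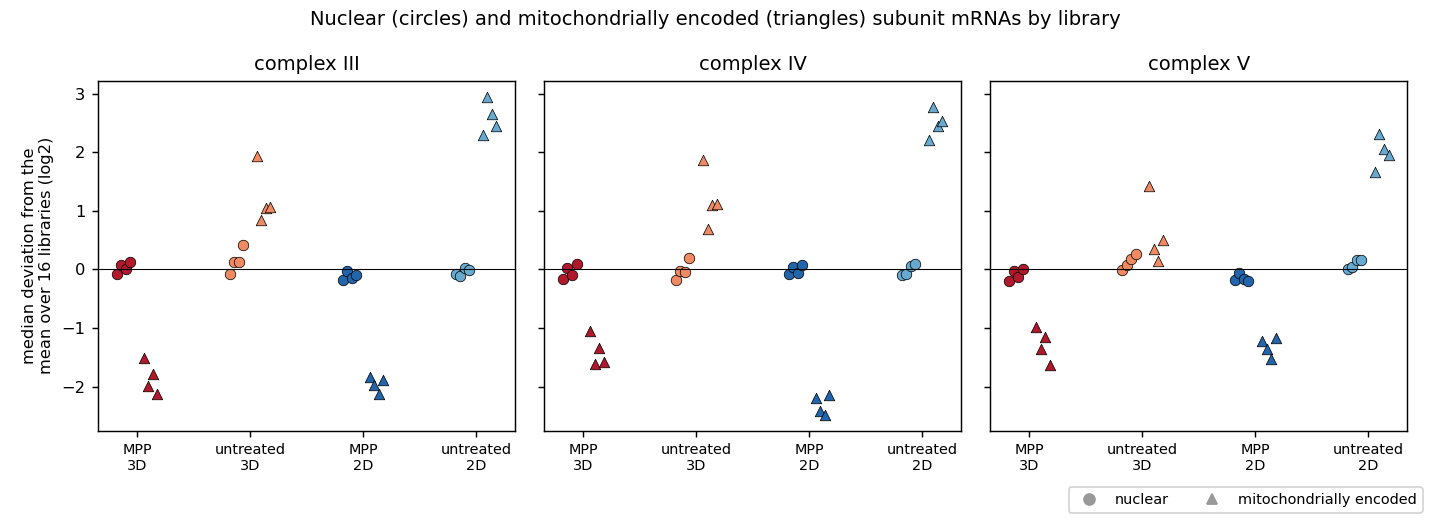
Median deviation (log2, vertical axis) of nuclear subunit genes (circles) and mitochondrially encoded subunit genes (triangles) from their mean over 16 libraries, 1 point per library, by group and complex. The circles stay within 0.415 of 0, whereas the triangles of complex IV average -2.30 in MPP-treated 2D and 2.50 in untreated 2D.

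Assembly factors put the subunits together, and they were described by lists of 4 genes for complex II, 9 for complex III (6 tested), 24 for complex IV and 5 for complex V. For complex II, SDHAF4 rose after MPP in 3D (log2 0.55, limma adjusted p = 0.000538) and in 2D (log2 0.46, limma adjusted p = 0.00281), as the only call of 4 in each. For complex III, 2 of 6 were called in each format, all lower: BCS1L, which inserts the Rieske protein, in 2D (log2 -0.54, limma adjusted p = 0.000602) and TTC19 in 3D (log2 -0.35, limma adjusted p = 0.00161), with LYRM7 in both (log2 -0.30, limma adjusted p = 0.00872 in 3D). For complex IV, 1 of 24 rose and 2 fell in 2D, and 2 rose and 1 fell in 3D; COX10, a heme A synthesis enzyme, was the one that rose in 2D (log2 0.48, limma adjusted p = 0.000714), and COX17, a copper chaperone, rose in 3D (log2 0.40, limma adjusted p = 0.0182). For complex V, TMEM70, which helps build the c ring, fell in 3D (log2 -0.49, limma adjusted p = 0.00356) and in 2D (log2 -0.56, limma adjusted p = 0.00135), beside ATPAF1 in 2D. Between formats, 6 of 24 complex IV factors were called (25%, against 38.9% of all genes), all higher in MPP-treated 3D than in MPP-treated 2D, led by COX19 (log2 0.61, limma adjusted p = 2.32e-05). In untreated 3D over untreated 2D, 5 were higher and 2 lower (29.2% against 46.1%). After MPP in 3D, the called shares of factors for complexes II, III, IV and V were 25%, 33.3%, 12.5% and 20%, against 34.6% of all genes. In 2D they were 25%, 33.3%, 12.5% and 40%, against 34.5%.

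Of 12 transcriptional regulators of respiratory genes, 3 were called after MPP in 2D and all 3 fell: ESRRA, an orphan receptor (log2 -0.72, limma adjusted p = 0.000283), TFEB and TFAM, the packaging and transcription factor of mitochondrial DNA (log2 -0.41, limma adjusted p = 0.00404). In 3D, 2 were called after MPP and fell, GABPB1 (log2 -0.36, limma adjusted p = 0.0495) and YY1 (log2 -0.26, limma adjusted p = 0.0122). In untreated 3D over untreated 2D, 4 regulators were higher and 3 lower, from GABPB1 (log2 0.45, limma adjusted p = 0.0118) to ESRRG (log2 -0.92, limma adjusted p = 2.69e-07). The called shares of regulators after MPP were 25% in 2D and 16.7% in 3D, below the 34.5% and 34.6% of all genes. Between untreated formats the share was 58.3%, against 46.1% of all genes. COX4I2 is read beside 8 other oxygen-responsive mitochondrial genes. Several of the 8, including LONP1, PDK1, BNIP3 and FUNDC1, encode no subunit of the chain. Of the 8, 5 were called between untreated 3D and untreated 2D, all higher in 3D (62.5%, against 46.1% of all genes in either direction). The other 3, HIGD1A, NDUFA4 and FUNDC1, were not called there and had log2 changes below 0. After MPP in 3D, 3 were called, all lower (37.5% against 34.6%). The difference of MPP effects was called for 4, all lower (50% against 15.3%). NDUFA4L2, a low-oxygen relative of a complex IV subunit, had 683, 525, 367 and 538 normalised reads in MPP-treated 3D and 4259, 4870.3, 4668 and 4898 in untreated 3D, with 131, 111, 105 and 92.4 in MPP-treated 2D and 50.8, 88.4, 91.1 and 110.1 in untreated 2D libraries. Like COX4I2, it was high in untreated 3D: it was higher there than in untreated 2D (log2 5.81, limma adjusted p = 1.91e-16) and fell after MPP in 3D (log2 -3.18, limma adjusted p = 1.92e-11). LONP1, the protease that removes COX4I1 protein under low oxygen, was higher in untreated 3D than in untreated 2D (log2 0.79, limma adjusted p = 1.54e-09), as were PDK1, BNIP3 and HIGD2A.

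Of 13 genes for ubiquinone synthesis and heme attachment to cytochromes, 1 rose and 4 fell after MPP in each format; COQ5 rose in both (log2 0.45, limma adjusted p = 0.0041 in 3D and log2 0.58, limma adjusted p = 0.000442 in 2D), and HCCS, which attaches heme to cytochrome c and cytochrome c1, fell in both (log2 -0.35, limma adjusted p = 0.00365 in 3D and log2 -0.55, limma adjusted p = 4.64e-05 in 2D). Of 6 tested genes for ADP, ATP and phosphate carriers and porins, which feed complex V, 3 rose and 2 fell after MPP in 3D, from SLC25A5 (log2 0.43, limma adjusted p = 1.34e-05) to SLC25A4 (log2 -0.90, limma adjusted p = 3.76e-10), both ADP and ATP carriers, and 2 rose and 1 fell in 2D, from SLC25A3, the phosphate carrier (log2 0.36, limma adjusted p = 5.13e-05), to VDAC3. SLC25A4 was higher in untreated 3D than in untreated 2D (log2 0.80, limma adjusted p = 1.33e-09) and its MPP effect differed between the formats (log2 -0.80, limma adjusted p = 1.27e-06). Called in either direction after MPP were 38.5% of the ubiquinone and heme genes in each format. Of the carriers and porins it was 83.3% in 3D and 50% in 2D, and of all genes 34.6% and 34.5%.

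Nuclear genes for other mitochondrial machines are given for comparison: of 35 complex I subunits, 2 rose and 9 fell in 3D and 4 rose and 6 fell in 2D, with medians of -0.12 and -0.10. Of 75 mitochondrial ribosomal proteins, 6 rose and 11 fell in 3D and 9 rose and 8 fell in 2D after MPP. Called in either direction after MPP were 31.4% of the complex I subunits in 3D and 28.6% in 2D. For the ribosomal proteins it was 22.7% in each, and for all genes 34.6% and 34.5%. In untreated 3D over untreated 2D, 27 of 75 ribosomal proteins were higher and 4 lower (median 0.15), against 8 higher and 4 lower of the 47 members (median 0.04). Of all genes, 23.2% were higher and 23% lower there. No test of the lists was made.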

How the data were processed

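Poly-A selected RNA of 16 libraries was sequenced, and groups and replicate numbers come from the sample titles. The authors deposited a gene-by-library signal: whole read counts scaled by each library's size factor. CASAVA 1.8.2, FastQC, STAR, featureCounts and DESeq2 with GRCh38.p13 are named in the submitters' processing notes, while settings, annotation and strand use were not stated in the sources used here. Every value was a whole multiple of its library's step within 0.01 reads (100% of values), so whole reads were recovered (24589435 to 46359070 per library) and used for depth and for count tests as alternatives. The main test was limma 3.58.1 (R 4.3.3) on log2(value + 1), letting variance follow the mean, in 1 fit of all 16 libraries and 4 groups. The 16984 genes reaching 10 in 4 libraries or more were tested, and an adjusted p (Benjamini-Hochberg) under 0.05 made a call. The pseudocount shrinks fold changes of low genes. The recovered reads would allow a count test as the main one, and limma was kept because the deposited values are normalised. Alternatives were edgeR 4.0.16 quasi-likelihood and DESeq2 1.42.0, equal library totals, equal nuclear totals, pseudocounts of 0.5 and 5, quantile normalisation, dropping the filter, a minimum mean of 50, only the compared groups, robust empirical Bayes, a replicate block and leaving out each library. The script was tested on simulated data. Overlaps and near-identical copies (blastn 2.17.0, 95% or more over 100 bases or more) are from GENCODE 29, and promoters from RefSeq, GRCh38.p14. Per-library values are given, in each comparison, for the 3 highest and 3 lowest called members without overlap between groups, for the called members of the difference, and for SDHA to SDHD, CYC1, CYCS, ATP5IF1, COX7A2L and the alternative subunit forms, and also for UQCRQ, UQCR11 and ATP5PD, which fell in both formats; of each other list, called members with the highest and lowest change may be named, and further ones named were chosen after their values were seen. The members and lists were chosen with earlier results of these data known. Reads carry no molecular identifiers, so they need not be independent molecules.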

Additional observations from a re-analysis of the deposited data

Results flagged for a closer look

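A library far from the other 3 of its group was found in 4 of 96 sets of 4 libraries (24 members in 4 groups), where chance gives about 1 in 20. COX7A1 had 21.7 normalised reads in MPP-treated 3D replicate 1, against 2.68 to 4.60 in the rest of its group. COX4I1 had 4863 normalised reads in MPP-treated 3D replicate 1, against 5629 to 5782 in the rest of its group. SDHA had 2266 normalised reads in MPP-treated 2D replicate 2, against 1945 to 1987 in the rest of its group. COX6A1 had 7309 normalised reads in untreated 2D replicate 4, against 6720.1 to 6789.7 in the rest of its group. The effect of MPP differed between 3D and 2D by a tested interaction for 3 members: COX4I2 by -2.98 on the log2 scale (limma adjusted p = 0.000732), COX6B2 by -1.63 (limma adjusted p = 1.6e-06) and ATP5MC1 by 0.54 (limma adjusted p = 0.0252). COX4I2 was high in untreated 3D and fell there with MPP, and was low in 2D with and without MPP. COX6B2 rose with MPP in 2D, and ATP5MC1 fell with MPP in 2D. The ATP5MC1 call missed the threshold without any 1 of untreated 2D replicate 3, untreated 3D replicate 1, MPP-treated 2D replicate 1, MPP-treated 3D replicate 2 and MPP-treated 3D replicate 4, at limma adjusted p of 0.0504 to 0.0636.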

How the results depend on the processing

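Of the 52 calls on members, 30 passed the threshold under every alternative run, 22 missed it under at least 1 and none turned round. With library totals set equal, the members called as higher and lower numbered 6 and 7 for MPP in 2D (as deposited 3 and 14), and the number higher was 5 for MPP in 3D (as deposited 2); with nuclear totals set equal, it was 5 for MPP in 3D and 5 for the difference of MPP effects (as deposited 1), and 9 were lower for untreated 3D over 2D (as deposited 4). Those scalings move the all-gene medians and calls, as given above; for the other alternatives, the cause was not tested. Leaving out 1 library at a time gave, for higher and lower, 2 to 4 and 11 to 14 for MPP in 2D, 2 to 3 and 11 to 13 for MPP in 3D, 5 to 10 and 2 to 8 for untreated 3D over 2D, 3 to 9 and 1 to 3 for MPP-treated 3D over 2D, and 0 to 1 and 2 to 2 for the difference of MPP effects. Same-numbered libraries share only a number: their deviations from group means correlated at -0.12 to 0.090. The replicate block gave, for higher and lower, 3 and 13 for MPP in 2D, 2 and 11 for MPP in 3D, 9 and 4 for untreated 3D over 2D, 7 and 3 for MPP-treated 3D over 2D and 1 and 2 for the difference of MPP effects. It lost 2 calls, both of UQCRC1: the fall in 2D (limma adjusted p = 0.0584) and the difference between untreated 3D and 2D (0.0667). The edgeR and DESeq2 counts on recovered reads, pseudocounts of 0.5 and 5, quantile normalisation, dropping the filter, a minimum mean of 50, robust empirical Bayes and fits of only the compared groups each kept the counts of calls within 1.5 times the values reported. Depth limits the low genes COX6A2, COX7A1 and ATP5F1E, and COX4I2 outside untreated 3D. Counting of near-identical copies and overlapping genes limits those named above.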
